A study of Homo sapiens with 6 samples.

Results

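The numbered ZNF genes of chromosome 19 were examined in cultures that the labels call MKN-45, a human cell line from a gastric adenocarcinoma. Members were taken by position and name alone: every gene of the deposited count table that lies on chromosome 19 and whose symbol is ZNF, a number and at most 1 further letter. The rule found 265 of 62700 gene identifiers, with 263 symbols, since ZNF781 and ZNF542P have more than 1 identifier each. RefSeq lists 246 of them as protein coding and 19 as pseudogenes. A further 298 genes with such names lie on other chromosomes, and chromosome 19 holds 2811 other genes in the table. Gene symbols without a number, or with longer endings, are not included, so the set is most but not all of the zinc finger genes of the chromosome.

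Poly(A) RNA was sequenced from 6 cultures, 3 labelled NNMT knockdown and 3 labelled control, harvested 48 h after transfection according to the treatment protocol. NNMT is nicotinamide N-methyltransferase, an enzyme that spends the methyl donor S-adenosylmethionine. The labels name both siRNA and shRNA as the transfected molecule, and they describe the controls both as untouched and as given a negative-control RNA. They also disagree on the library kit, and the RNA selection was not tested. The labels call the 3 cultures of each condition independent biological replicates. Read totals were 40558680, 45405621 and 43455163 in libraries 1, 2 and 3 labelled NNMT knockdown, and 41591436, 48215685 and 56067484 in control libraries 1, 2 and 3. NNMT itself had 2, 8 and 14 reads in the libraries labelled knockdown, against 0, 8 and 12 in the control libraries, a log2 fold change of 0.48 ± 0.93 (SE; edgeR, unadjusted p = 0.616, adjusted p = 0.999). Its reads were few in all 6 libraries, so they do not show a knockdown, and the groups below are called by their labels. All 6 epithelial markers had at least 1 TPM, at 24.6 to 1773 TPM. The 15 gastric and intestinal markers were mixed. TFF1 (44.8 TPM), TFF3 (32.9 TPM), MUC6 (25.2 TPM), TFF2 (9.97 TPM), GATA6 (7.76 TPM) and MUC5AC (2.74 TPM) were expressed, 9 were under 1 TPM, and GKN1, CDX1, CDX2 and GATA4 had 0 reads. Of 6 fibroblast markers, COL1A1 (150 TPM), COL3A1 (51.6 TPM) and COL1A2 (4.01 TPM) were expressed and PDGFRB, DCN and LUM were under 1 TPM. Of 3 endothelial markers, PECAM1 had 12.5 TPM and the others were under 1 TPM. Of 4 leukocyte markers, CD14 had 1.41 TPM and the others were under 1 TPM. The identity of the cells was not tested.

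Most numbered ZNF genes encode proteins with a row of Krüppel-type zinc fingers, each of which reads a few bases of DNA, and many also carry a KRAB domain. The KRAB domain binds TRIM28, which brings in the histone H3 methyltransferase SETDB1 and HP1 proteins, and the bound locus is packed into heterochromatin. Many of these proteins bind transposable elements, and the family grew by tandem duplication, which left long clusters of related genes, above all on human chromosome 19.

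The members formed 9 positional blocks of at least 5 genes, a new block being started where more than 1 Mb separated neighbours, and 12 members were isolated. Block 4, at chr19:19668796-24129968 (hg38, on the short arm next to the centromere), stood apart in its promoters as well as in its levels. Its promoters are shown first, because genes with closely related promoters there ranged from silent to well expressed. Promoters were taken from RefSeq (GRCh38.p14) as 250 bases before to 50 bases after the most upstream annotated start, and 216 members had one. 4 of the 29 promoters of block 4 are given below, 5′ to 3′, with each CCAAT word of either strand in capitals. ZNF91 (chr19:23395422-23395721 on the minus strand) and ZNF430 (chr19:21020407-21020706 on the plus strand) were expressed at 16 and 11.4 TPM. ZNF208 (chr19:22010894-22011193 on the minus strand) and ZNF90 (chr19:20077750-20078049 on the plus strand) were silent.
ZNF91: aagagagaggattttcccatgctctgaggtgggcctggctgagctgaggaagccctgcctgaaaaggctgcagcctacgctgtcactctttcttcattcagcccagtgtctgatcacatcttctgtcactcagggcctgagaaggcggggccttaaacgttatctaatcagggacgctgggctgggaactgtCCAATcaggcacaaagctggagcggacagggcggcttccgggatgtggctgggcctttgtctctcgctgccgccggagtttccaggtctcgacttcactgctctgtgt
ZNF430: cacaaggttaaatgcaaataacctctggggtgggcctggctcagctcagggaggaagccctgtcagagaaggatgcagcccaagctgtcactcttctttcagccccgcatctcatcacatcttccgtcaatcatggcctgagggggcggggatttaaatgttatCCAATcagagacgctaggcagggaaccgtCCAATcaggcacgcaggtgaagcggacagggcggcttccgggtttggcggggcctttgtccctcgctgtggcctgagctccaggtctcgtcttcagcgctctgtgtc
ZNF208: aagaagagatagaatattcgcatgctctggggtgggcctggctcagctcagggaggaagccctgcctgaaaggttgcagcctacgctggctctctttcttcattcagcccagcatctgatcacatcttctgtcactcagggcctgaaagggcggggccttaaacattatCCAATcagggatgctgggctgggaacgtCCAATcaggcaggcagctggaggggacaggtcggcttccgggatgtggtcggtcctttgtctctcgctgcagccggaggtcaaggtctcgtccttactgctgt
ZNF90: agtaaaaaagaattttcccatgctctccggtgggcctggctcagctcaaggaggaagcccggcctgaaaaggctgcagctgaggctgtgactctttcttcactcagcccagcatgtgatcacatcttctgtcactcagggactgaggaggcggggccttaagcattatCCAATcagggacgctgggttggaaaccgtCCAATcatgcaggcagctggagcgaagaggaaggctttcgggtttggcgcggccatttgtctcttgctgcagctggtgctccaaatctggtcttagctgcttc

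The ZNF208 promoter was 86% identical to that of ZNF91 over their alignment, and those of ZNF90 and ZNF430 were 80.1% and 79% identical to it. TPM is reads per base of merged exon, scaled to the same total in each library. ZNF208 had 0, 0 and 0.016 TPM in the libraries labelled knockdown and 0 in each control library. ZNF91, which represses SVA retroelements, had 14.9, 14.1 and 18 TPM in the libraries labelled knockdown and 14 TPM, 16.6 TPM and 18.6 TPM in the control libraries. Each library thus held many reads of ZNF91 and almost none of ZNF208, and the ZNF91 groups overlapped.

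Across block 4, promoters had a median pairwise identity of 75.8% over 406 pairs, the highest being 91% between ZNF714 and ZNF431. The medians of the other 8 blocks lay between 50.4% and 55.4%. The word CCAAT, searched on both strands, was present in 29 of 29 promoters of block 4 (100%). It was present in 47.1% of the 187 promoters of members outside block 4, in 43% of 214 promoters of ZNF genes on other chromosomes and in 35.7% of all 27305 promoters. In 26 of the 29 it began 51 to 59 bases before the annotated start, and 17 of these had a further CCAAT 81 to 87 bases before it. A run of 20 bases, gatcacatcttctgtcactc, occurred in 11 promoters of block 4 and in no other of the 27305. Of those 11 genes, 3 were silent (ZNF90, ZNF208 and ZNF723), 4 had at least 1 TPM (ZNF85, ZNF714, ZNF91 and ZNF675) and the other 4 lay between. The CCAAT word, present in all 29, could not separate silent from expressed genes. The run was picked as a 20-base word shared by the most block 4 promoters, and both silent and expressed genes held it. Only 3 of the 11 silent members of block 4 had a RefSeq promoter. Most of its silent genes, among them ZNF676, ZNF729, ZNF98, ZNF99 and ZNF728, are thus not covered. The word GGGCGG was found in 67.1% of member promoters, 60.3% of those of ZNF genes on other chromosomes and 44.5% of all, both strands being searched. TATAAA was found in 2.31%, 4.21% and 12%, so neither contrast was particular to the members. Within the members, TATAAA was present in 10.3% of block 4 promoters and 1.07% of those outside it.

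The promoters of block 4 were also poor in CpG. The observed-to-expected CpG ratio, which relates the number of CG dinucleotides to the C and G content, had a median of 0.438 in block 4, with 4 of 29 promoters (13.8%) at 0.6 or more. In the other members the median was 0.798 and 87.2% reached 0.6, while over all promoters the median was 0.577 and 48.8% reached it. The silent members outside block 4 were not CpG poor. All 7 of them with a promoter had ratios of 0.782 to 0.991, against a median of 0.798 in the 158 expressed members outside block 4. The promoters of 3 members with such ratios follow, with every CG in capitals: ZNF285 (chr19:44401559-44401858 on the minus strand), which had 0 reads in all 6 libraries, ZNF568 (chr19:36916082-36916381 on the plus strand), silent as well, and ZNF83 (chr19:52690447-52690746 on the minus strand), the most abundant member.
ZNF285: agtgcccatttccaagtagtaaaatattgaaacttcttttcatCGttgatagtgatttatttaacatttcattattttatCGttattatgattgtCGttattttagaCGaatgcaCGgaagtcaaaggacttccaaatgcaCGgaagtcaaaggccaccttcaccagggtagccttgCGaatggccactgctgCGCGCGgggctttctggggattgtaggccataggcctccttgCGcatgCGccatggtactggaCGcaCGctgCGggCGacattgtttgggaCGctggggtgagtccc
ZNF568: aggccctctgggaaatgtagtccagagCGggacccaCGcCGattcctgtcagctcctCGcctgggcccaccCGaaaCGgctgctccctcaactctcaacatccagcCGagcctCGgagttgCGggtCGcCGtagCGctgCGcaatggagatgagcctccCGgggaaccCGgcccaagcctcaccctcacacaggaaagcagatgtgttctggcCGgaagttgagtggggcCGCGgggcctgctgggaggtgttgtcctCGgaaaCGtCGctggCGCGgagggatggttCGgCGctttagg
ZNF83: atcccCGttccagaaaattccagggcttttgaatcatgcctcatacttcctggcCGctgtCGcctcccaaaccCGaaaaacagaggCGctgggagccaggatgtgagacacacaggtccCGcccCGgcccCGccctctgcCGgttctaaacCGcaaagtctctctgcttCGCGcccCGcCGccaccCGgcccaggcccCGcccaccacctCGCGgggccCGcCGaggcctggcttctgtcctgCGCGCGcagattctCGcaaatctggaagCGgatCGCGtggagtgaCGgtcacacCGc

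The ratio was 0.991 for ZNF285, 0.782 for ZNF568 and 0.933 for ZNF83, with mean levels of 0, 0.017 and 143 TPM. RefSeq starts were not checked against the starts used in these cells, and DNA methylation was not measured.

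**Figure D1:**
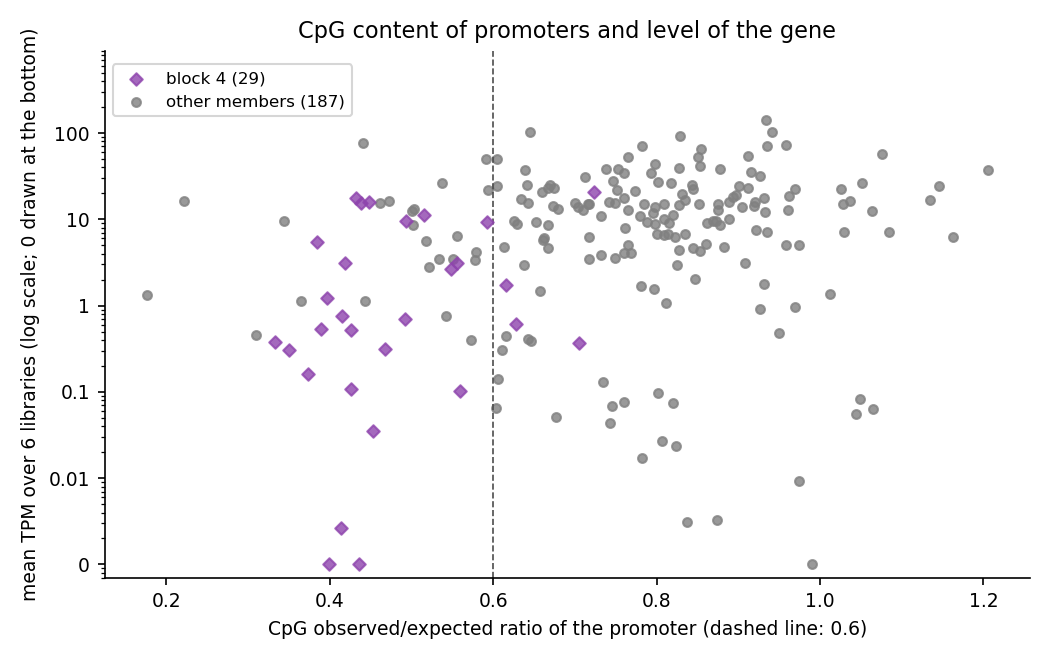
Mean level over the 6 libraries in TPM (vertical, log scale) against the observed-to-expected CpG ratio of the promoter (horizontal) for the 216 members with a RefSeq promoter, purple diamonds for block 4 and grey circles for the others. Block 4 lies mostly left of the dashed line at 0.6 and spans silent to 20.7 TPM, while the silent members outside block 4 lie right of it.

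Of the 265 members, 196 (74%) had a mean of at least 1 TPM, 111 had at least 10 TPM and 14 at least 50 TPM, and the median over all members was 7.09 TPM. A member was called silent where it was under 0.1 TPM in every library. This held for 25 members (9.43%), of which 13 had no read at all, and 44 members lay between silent and 1 TPM. For independent reads and counting error alone, the upper limit set by a count of 0 is 3 reads. This is 0.0535 CPM in the deepest library and 0.074 CPM in the shallowest. Mates of a pair were counted singly, so reads were not independent and the limit is higher. Of ZNF genes on other chromosomes 15.1% were silent, as were 35.7% of the other genes of chromosome 19. Among protein-coding genes of GENCODE 29 the shares were 6.48% of the members, 8.4% of the ZNF genes elsewhere and 19% of the other chromosome 19 genes.

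Of the silent members, 10 were pseudogenes and 15 coding genes. For 8 of the 25, namely ZNF812P, ZNF833P, ZNF788P, ZNF861P, ZNF56P, ZNF826P and 1 identifier each of ZNF781 and ZNF542P, under 10% of the exon bases belonged to no other gene. Reads that overlap several genes were not counted, so a level of 0 for these says little about their RNA. Reads that aligned to several places were not counted either, which lowers counts of near-identical copies by an amount that was not tested. The other 17 silent members comprised 9 in block 4 and 8 elsewhere.

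**Figure D2:**
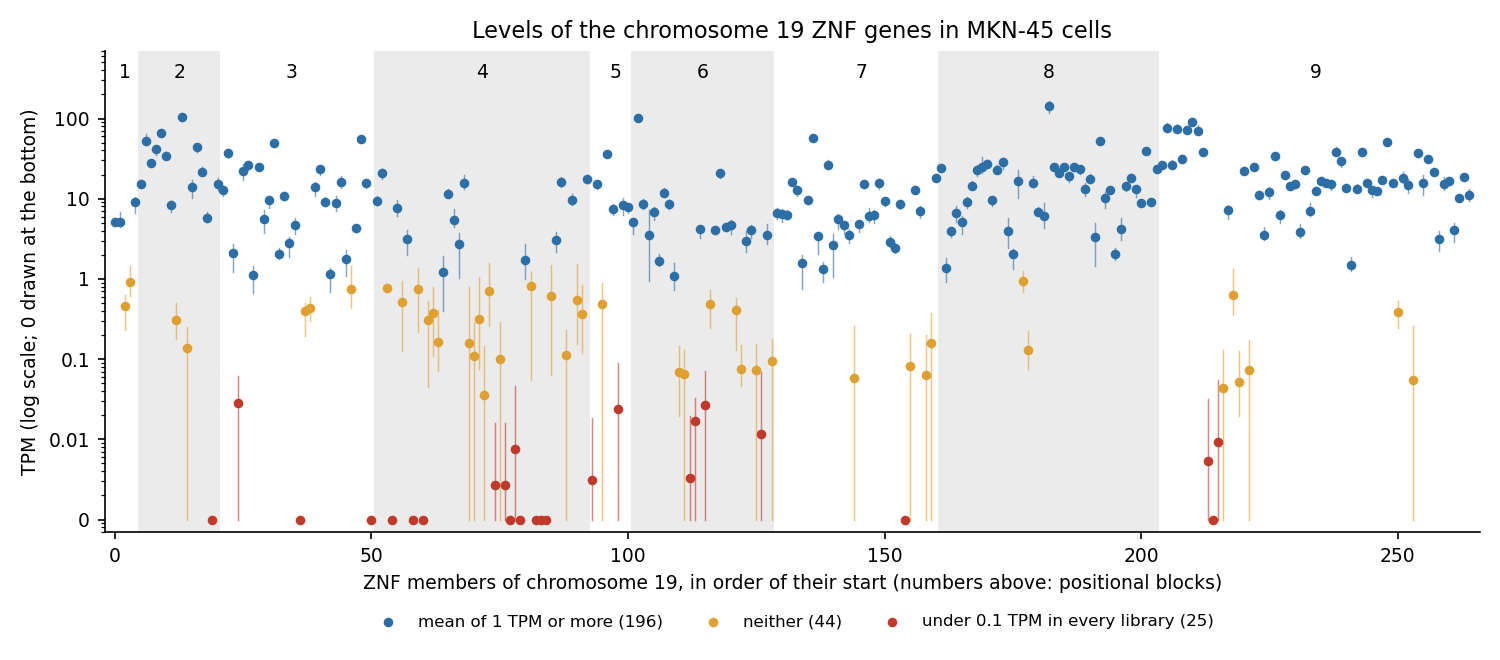
Mean level in TPM of each of the 265 members (log scale, vertical) in order along chromosome 19 (horizontal), with a line from the lowest to the highest of the 6 libraries. Numbers and shading mark the 9 blocks, and the silent members (red) gather in block 4, where 11 of 42 were silent.

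Levels differed between blocks far more than between the labelled groups. In block 4, 11 of 42 members (26.2%) were silent and 14 (33.3%) had at least 1 TPM, with a median of 0.448 TPM. Outside it, 14 of 223 (6.28%) were silent and 182 (81.6%) had at least 1 TPM, with a median of 9.2 TPM. In single libraries the median of block 4 ranged from 0.134 to 0.556 TPM, below the range of 13.1 to 15.2 TPM for block 8 in the same libraries. The levels summed over block 4 were 130 ± 11.3 TPM in the libraries labelled knockdown and 134 ± 11 TPM in the control libraries (SD, n = 3 each), a difference smaller than the spread within each group.

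The silent members of block 4 were not spread evenly. ZNF676, ZNF729, ZNF98 and ZNF209P followed each other among the members, in order of start, over chr19:22179089-22532485. They formed the longest run of silent members, other genes of the chromosome being left out of the runs. ZNF729 and ZNF209P had 0 reads in every library, and ZNF676 and ZNF98 had reads in control library 3 alone, at 0.016 and 0.046 TPM. After ZNF492 (1.74 TPM) and ZNF849P (0.821 TPM), the next run held ZNF99, ZNF723 and ZNF728 at chr19:22752183-23003176, all at 0 reads. ZNF208 and ZNF90 were silent on their own. The better expressed genes of the block lay on both sides of these runs: ZNF14 at 20.7 TPM, ZNF430 at 11.4 TPM, ZNF708 at 15.5 TPM, ZNF91 at 16 TPM and ZNF254 at 17.6 TPM. ZNF254 had 17.1, 15.6 and 17.5 TPM in the libraries labelled knockdown and 16.8, 19.6 and 18.8 TPM in the control libraries, so the groups overlapped.

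Block 8, at chr19:51571283-53580269, was the opposite. None of its 43 members was silent, 41 (95.3%) had at least 1 TPM and the median was 14.3 TPM. It held ZNF83, the most abundant member, with 149, 117 and 152 TPM in the libraries labelled knockdown and 130, 144 and 164 TPM in the control libraries. The groups overlapped, and the log2 fold change was -0.04 ± 0.13 (SE). Blocks 2 and 9 also had high medians, 18.4 TPM over 16 members and 15.5 TPM over 61 members. Block 2 was led by ZNF266 at 104 TPM, and block 9 by ZNF581 at 91.4 TPM, beside its close neighbours ZNF580 (71.5 TPM), ZNF579 (76.3 TPM), ZNF865 (73.4 TPM) and ZNF787 (70.6 TPM). These were 5 of the 10 most abundant members. ZNF146 in block 6, whose protein consists almost wholly of zinc fingers, had 94.4, 106 and 96.9 TPM in the libraries labelled knockdown and 106, 106 and 102 TPM in the control libraries. The others of the 10 were ZNF317 (66.1 TPM) in block 2 and ZNF428 (57.7 TPM) in block 7. In the remaining blocks the top members were ZNF77 (9.2 TPM, block 1), ZNF791 (54.9 TPM, block 3), ZNF14 (20.7 TPM, block 4) and ZNF302 (35.6 TPM, block 5). Levels here are per exon base, so genes can be compared, but exon bases shared with other genes lower them.

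Outside block 4 the silent coding genes were single genes or short stretches, some of them beside members that were also low. ZNF536 was isolated, and ZNF585A (0.0268 TPM) stood between ZNF420 and ZNF585B (0.487 TPM). ZNF285 had 0 reads between ZNF112 (8.57 TPM) and ZNF229 (0.0819 TPM), with ZNF180 (12.9 TPM) next. ZNF599 stood between ZNF181 (7.44 TPM) and ZNF30 (8.32 TPM). ZNF829 (0.00325 TPM) and ZNF568 (0.017 TPM) adjoined each other in block 6. Just before them ZNF790 and ZNF345 had means of 0.0693 and 0.0657 TPM, with some libraries above 0.1 TPM, and just after them ZNF420 had 4.2 TPM. In block 9, ZNF582 (0.00922 TPM) overlapped the silent pseudogene ZNF542P, and 64.9% of the exon bases of ZNF582 belonged to no other gene. With ZNF583 (0.044 TPM) they lay between ZNF444 (38.1 TPM) and ZNF667 (7.23 TPM). Across the 244 pairs of adjacent members within blocks, the mean levels had a Spearman rho of 0.413, and 0.311 over the 203 pairs outside block 4. This is a description across genes, whose points share libraries, overlapping exons and related promoters.

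The members best known as repressors of transposable elements were unequal in level. ZNF91 had 16 TPM, whereas ZNF93, which represses L1 elements and also lies in block 4, had 0.521 TPM. ZNF93 varied widely, with 0.952, 0.298 and 0.51 TPM in the libraries labelled knockdown and 0.126, 0.511 and 0.732 TPM in the control libraries. ZNF417 and ZNF587, which repress HERV-K elements, had 15.8 and 50.6 TPM. In log2 CPM the ZNF417 groups did not overlap and the libraries labelled knockdown were lower. Its log2 fold change was small, at -0.09 ± 0.1 (SE; unadjusted p = 0.367 in edgeR). ZNF587 stood at 49.3, 52.4 and 50.8 TPM in the libraries labelled knockdown, against 51.6, 50.5 and 49.2 TPM in the control libraries, and the groups overlapped (log2 fold change 0.03 ± 0.08, SE). ZNF568, whose mouse counterpart represses a placental transcript of Igf2, was silent. ZNF536, an isolated member with a role in neuronal differentiation, was silent as well, with reads in library 3 labelled knockdown alone.

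Several members are known for promoter methylation in carcinomas, and they did not share a level here. ZNF582 was silent, ZNF154 and ZNF382 had 1.48 and 1.67 TPM, ZNF331 had 23.2 TPM and ZNF671 had 13.1 TPM. Of members with other described roles, ZNF224, a repressor of the aldolase A gene, had 15.2 TPM. ZNF350, a BRCA1-binding repressor, had 5.18 TPM, ZNF675, a TRAF6-binding protein, had 9.67 TPM and ZNF175 had 24.2 TPM. In all of those with reads enough to test, the difference between labelled groups had an unadjusted p above 0.05 in edgeR's test. For each of these tested genes the 95% interval of the fold lay within 2-fold.

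For the comparison of the libraries labelled NNMT knockdown with control, 220 members passed the filter on low counts, comprising the 196 with at least 1 TPM and 24 of those between. The 25 silent members and 20 others were not tested. No member had an adjusted p under 0.05 in edgeR's quasi-likelihood test with Benjamini-Hochberg adjustment over all genes tested, where the share called was 0% of 20250, and the lowest adjusted p among members was 0.9995. DESeq2 and limma-voom also called 0 members, with 8 genes in all for DESeq2 (0.0395%), and without the filter on low counts edgeR called 72 genes (0.19%) and 0 members. At an unadjusted p under 0.05 there were 5 members (2.27%), against 4.03% of all genes tested. All 5 were lower in the libraries labelled knockdown, where 2.05% of all genes tested were lower and 1.98% higher, so the share of members lower at this level was near the background. The count rested on single libraries, being 1 of 221 without control library 2, 9 of 225 without control library 1 and 12 of 221 without library 3 labelled knockdown. The shares over all genes in those fits are not given. For 188 of the 220 the 95% interval of the fold lay within 2-fold in either direction, including 186 of the 196 with at least 1 TPM.

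**Figure D3:**
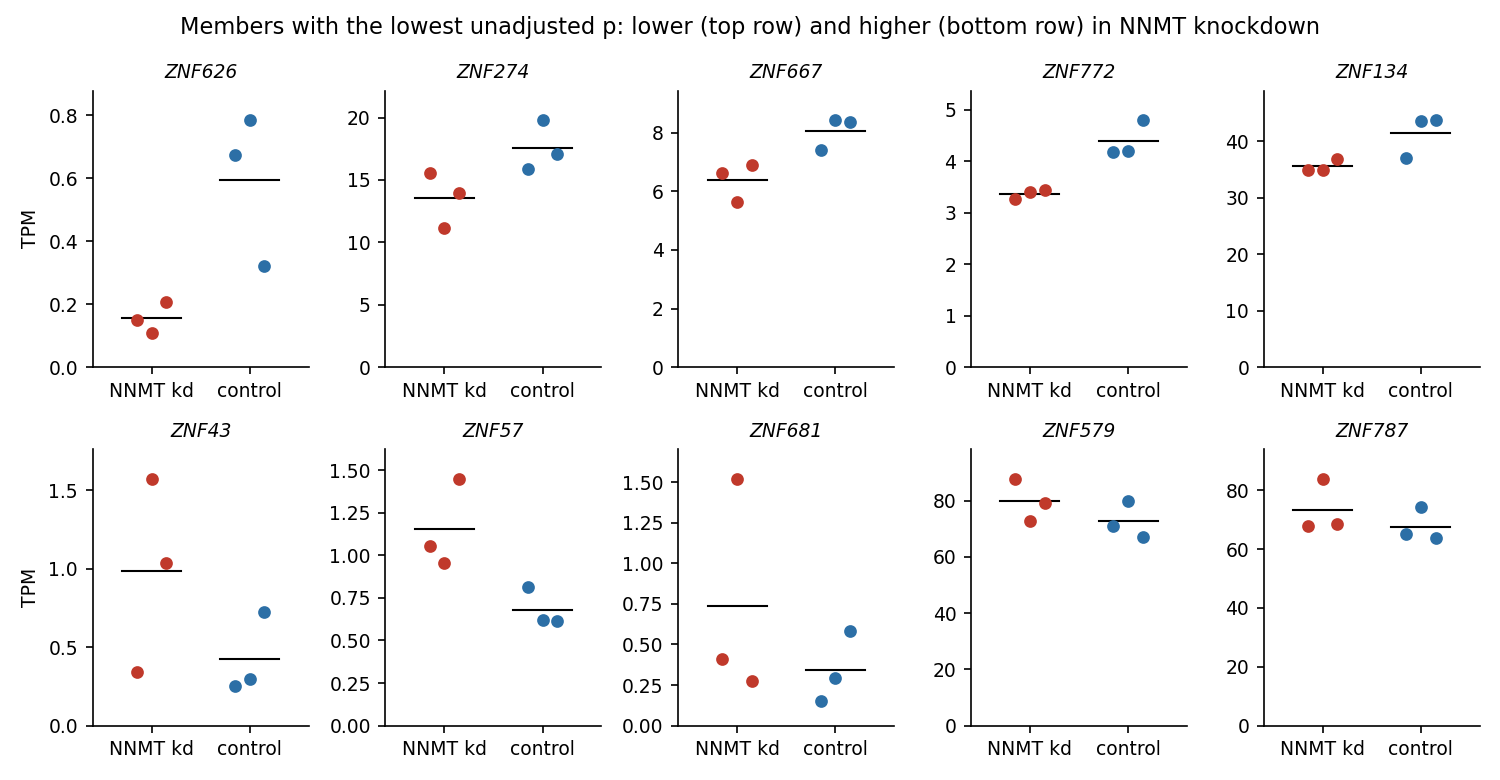
TPM in each library (points; horizontal lines are means of 3) of the 5 lower and the 5 higher members with the lowest unadjusted p, libraries labelled NNMT knockdown (kd, red) left and control (blue) right. In the top row no knockdown point reaches a control point, and in the bottom row only ZNF57 is free of overlap.

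The lowest p belonged to ZNF626, a KRAB member of block 4. It had 10, 8 and 15 reads in the libraries labelled knockdown, against 46, 62 and 29 in the control libraries. The groups did not overlap, and the log2 fold change was -1.91 ± 0.48 (SE; unadjusted p = 0.00236, adjusted p = 0.9995 in edgeR), at a level of 0.155 ± 0.0504 TPM in the libraries labelled knockdown and 0.593 ± 0.242 TPM in the control libraries (SD, n = 3 each). The other 4 lay in block 9 and differed less. ZNF274, which binds the last exons of other ZNF genes and brings SETDB1 there, had 15.5, 11.2 and 14 TPM in the libraries labelled knockdown and 15.9, 19.8 and 17.1 TPM in the control libraries. Its groups were separated only narrowly, with a log2 fold change of -0.36 ± 0.14 (SE; unadjusted p = 0.0314 in edgeR). ZNF772 had 3.27, 3.41 and 3.44 TPM against 4.18, 4.2 and 4.8 TPM in control, and ZNF667 had 6.63, 5.64 and 6.91 TPM against 7.4, 8.43 and 8.35 TPM in control. ZNF134 had 34.8, 34.8 and 36.9 TPM against 37, 43.6 and 43.7 TPM in control. Their log2 fold changes were -0.36, -0.32 and -0.21, and none passed the adjustment in edgeR (adjusted p = 0.9995 for each).

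Among the higher members, ZNF43 of block 4 came first, with 0.343, 1.57 and 1.03 TPM in the libraries labelled knockdown and 0.255, 0.3 and 0.727 TPM in the control libraries (log2 fold change 1.20 ± 0.57, SE; unadjusted p = 0.0648 and adjusted p = 0.9995 in edgeR). Library 1 labelled knockdown lay within the control range, so the groups overlapped. ZNF681, in the same block, had a log2 fold change of 1.09 ± 0.69 (SE) that rested on library 2 labelled knockdown, at 1.52 TPM against 0.154 to 0.582 TPM in the control libraries. ZNF57, at 1.06, 0.955 and 1.45 TPM against 0.811, 0.621 and 0.611 TPM in control, was the one higher member without overlap (log2 fold change 0.78 ± 0.42, SE), and 24.8% of its exon bases belong to it alone. ZNF579 and ZNF787 had log2 fold changes of 0.16 and 0.13 with overlapping groups.

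Counted by direction, 153 of the 220 tested members (69.5%) had a log2 fold change below 0, where 49.2% of all genes tested did. Their median was -0.0661, with quartiles of -0.15 and 0.0201, against 0.00334 over all genes tested, and the median was -0.103 without control library 1. Of the 236 tested ZNF genes on other chromosomes 60.6% lay below 0 (median -0.0407), and of the other tested genes of chromosome 19 38.3% did (median 0.0491). The lean was small and was seen in most blocks: the block medians ran from -0.121 in block 6, where 17 of 20 tested members lay below 0, and -0.111 in block 3 (19 of 26) to -0.00906 in block 4, where 13 of 26 lay below 0. Blocks 8 and 9 had 31 of 42 and 36 of 54 members below 0. The log2 CPM values of the groups did not overlap for 19 members that were lower in the libraries labelled knockdown (8.64%, against 4.88% of all genes tested), and for 1 that was higher (0.455%, against 4.32%). The ZNF genes on other chromosomes had 9.32% lower and 3.81% higher without overlap, so the share lower was not particular to the members.

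**Figure D4:**
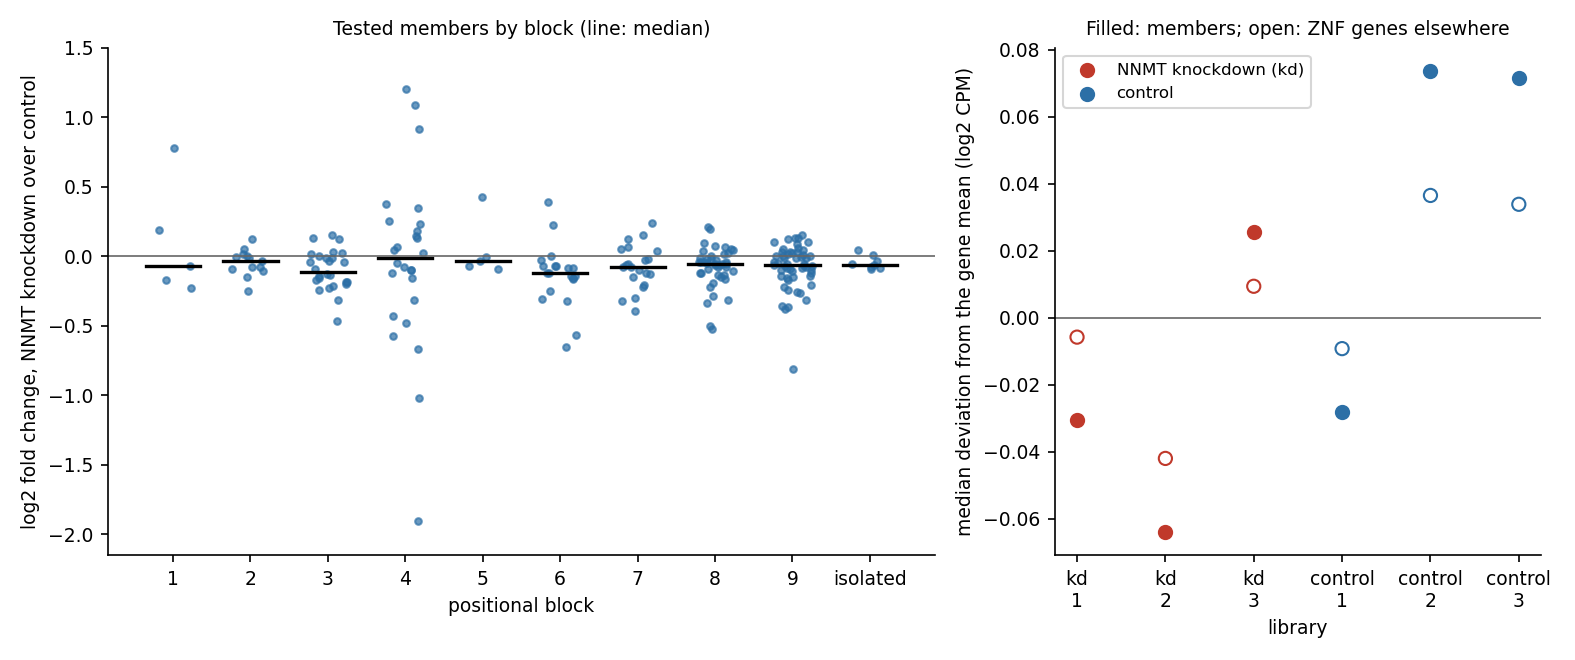
Left, log2 fold change of libraries labelled NNMT knockdown over control for the 220 tested members by positional block, with the block median as a line. Right, the median deviation of members (filled) and of ZNF genes elsewhere (open) from each gene's mean over 6 libraries, in log2 CPM, with knockdown libraries (kd, red) left and control libraries (blue) right; control libraries 2 and 3 lie highest and control library 1 lies among the knockdown libraries.

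By library, the median deviation of the tested members from their own means was -0.0307, -0.0641 and 0.0257 log2 CPM in libraries 1, 2 and 3 labelled knockdown, and -0.0281, 0.0737 and 0.0717 in control libraries 1, 2 and 3. Control libraries 2 and 3 thus lay highest, and control library 1 sat with the libraries labelled knockdown. In the ZNF genes on other chromosomes control libraries 2 and 3 were highest too, by less, with -0.00581, -0.042 and 0.00938 in the libraries labelled knockdown and -0.00924, 0.0365 and 0.0339 in the control libraries. Control libraries 2 and 3 were also the deepest. Of the 6 epithelial markers, EPCAM, CDH1 and KRT18 were highest in those libraries, while KRT8, KRT19 and CLDN4 were not. The 6 summed to 2347 to 2868 TPM in the libraries labelled knockdown and 2373 to 2409 TPM in the control libraries, most of it KRT19. What part depth or these markers had in the lean was not tested. The summed level of the members was 4551 ± 113 CPM in the libraries labelled knockdown and 4745 ± 187 CPM in the control libraries (SD, n = 3 each), and the groups overlapped, with control library 1 at 4531 CPM. Had the groups been separate, a loss of cells expressing these genes could not be told apart from less RNA per cell in bulk samples.

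Inside block 4, libraries with the same label also differed, by more than for most genes of like read number. The spread of a gene's reads between the 3 libraries of a group was set against counting error as a chi-square statistic per degree of freedom, which is near 1 for independent reads and higher where the mates of a pair are counted singly. For the 12 members of block 4 with 60 to 300 reads in all, its median was 13.8. It was 2.72 for 13 other members in that range, 3.32 for 11 ZNF genes elsewhere and 3.21 for all 5267 genes in it. A value of 10 or more was reached by 8 of the 12 (66.7%), against 1 of the 13 other members, 3 of the 11 ZNF genes elsewhere (27.3%) and 6.36% of the 5267. With 300 to 1000 reads the medians were 9.16 for 5 members of block 4, 4.44 for 19 other members, 4.12 for 21 ZNF genes elsewhere and 4.55 for all 2730 genes. There 2 of the 5 reached 10 (40%), against 15.8% of the other members, 23.8% of the ZNF genes elsewhere and 19.2% of all genes. This measure was chosen after the data had been seen and is given without a test.

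**Figure D5:**
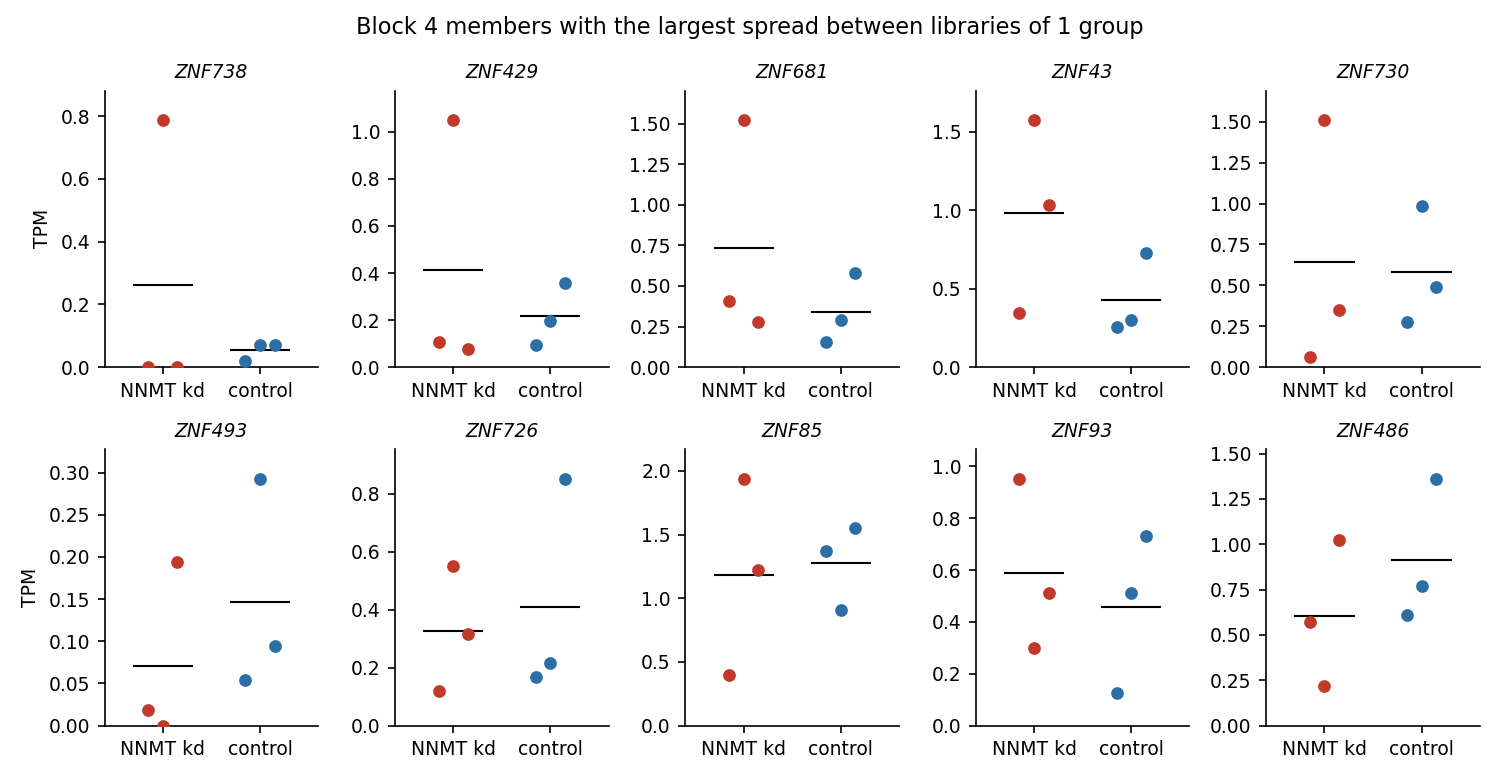
TPM in each library (points; lines are means of 3) of the 10 members of block 4 with 60 to 1000 reads whose libraries of 1 group differed most relative to counting error, libraries labelled NNMT knockdown (kd, red) left and control (blue) right. Single libraries stand out in most panels, often library 2 labelled knockdown.

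The genes that varied most were ZNF738, ZNF429, ZNF681, ZNF43 and ZNF730, picked by this measure. ZNF738 had 0, 82 and 0 reads in libraries 1, 2 and 3 labelled knockdown and 2, 8 and 9 in the control libraries, so that a single library held most of its reads. ZNF429 had 8, 86 and 6 reads in the libraries labelled knockdown and 7, 17 and 36 in the control libraries. ZNF730 had 2, 53 and 12 reads in the libraries labelled knockdown and 9, 37 and 21 in the control libraries. Library 2 labelled knockdown held the highest CPM for 7 of the 17 members of block 4 with 60 to 1000 reads, and control library 3 for 4 of them. ZNF493 had no reads there, with 2, 0 and 23 reads in the libraries labelled knockdown and 6, 38 and 14 in the control libraries. Not every low gene of the block varied so: ZNF506, with 68, 82 and 83 reads in the libraries labelled knockdown and 72, 82 and 105 in the control libraries, lay within counting error, at 0.283.

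Among members with at least 1 TPM, the largest ratios of the highest to the lowest library, in CPM, were 7.44 for ZNF260, 4.86 for ZNF85 and 3.59 for ZNF431, the last 2 from block 4. ZNF260, in block 6, had 0.954, 7.18 and 4 TPM in the libraries labelled knockdown and 1.4, 2 and 5.93 TPM in the control libraries. ZNF85 had 0.394, 1.94 and 1.22 TPM in the libraries labelled knockdown and 1.37, 0.907 and 1.55 TPM in the control libraries. ZNF431 had 1.03, 3.6 and 2.26 TPM in the libraries labelled knockdown and 3.17, 3.71 and 2.4 TPM in the control libraries. All 3 were lowest in library 1 labelled knockdown, and the groups overlapped for each.

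The partners through which KRAB zinc finger proteins act were all expressed. All 35 genes of a list of TRIM28, SETDB1, HP1, HUSH and NuRD components and related chromatin proteins, of which ZNF274 is itself a member, were tested, at mean levels of 4.23 TPM to 368 TPM. TRIM28 was the highest, and CBX5, the HP1 alpha gene, had 26.9 TPM. None passed the adjustment in edgeR. Of the 35, 2 had an unadjusted p under 0.05 in edgeR (ZNF274, lower, and MTA1, higher), where 4.03% of all genes tested did. Below 0 lay 15 of the 35, against 49.2% of all genes tested, and the median log2 fold change was 0.0109. MTA1, a NuRD subunit, had 88.2, 76.4 and 74.3 TPM in the libraries labelled knockdown and 65.2, 68 and 74 TPM in the control libraries (log2 fold change 0.22 ± 0.09, SE). SETDB1 had 29.9, 26.8 and 28.9 TPM in the libraries labelled knockdown and 31.2, 33.9 and 32.1 TPM in the control libraries. Its groups did not overlap, but its log2 fold change of -0.17 ± 0.09 (SE) had an unadjusted p of 0.091 and an adjusted p of 0.9995 in edgeR.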

How the data were processed

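Raw counts of reads for each gene, as deposited, were made with featureCounts 2.0.6 against hg38 and GENCODE 44, per the file headers. No aligner is named in those headers. Mates were counted singly, without a strand option, and reads that aligned to several places or overlapped several genes were dropped, per the file headers. TPM was computed here from the deposited counts and the deposited merged exon length, the other unit of the table, in bases. Genes were filtered with filterByExpr, scaled with TMM and tested with edgeR 4.0.16 (R 4.3.3; quasi-likelihood, robust, group only), with Benjamini-Hochberg adjustment over 20250 genes and a threshold of 0.05. DESeq2 1.42.0, limma-voom (limma 3.58.1), other scalings and filters, halved counts, a replicate block and leaving out each library were the alternatives. Promoters were aligned globally with Biopython 1.88.

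The members, lists and rules were chosen with earlier results of these data known. Named were NNMT, the 10 most abundant members, the 5 lower and 5 higher with the lowest p, each block's most abundant member, the longest silent run, the 3 members with the largest ratio between libraries, 17 members with a described role, and TRIM28, SETDB1, CBX5 and the 3 partners with the lowest p; neighbours of silent members, the genes with a common promoter run and the variable genes of block 4 were chosen after their values were seen.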

Additional observations from a re-analysis of the deposited data

How the results depend on the processing

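No member passed the adjusted threshold in any of the 14 alternative fits. At an unadjusted p under 0.05, edgeR's main fit had 5 of 220 members, and 13 of 252 without the filter on low counts. When a library was left out, 1 to 12 members reached it. These included 1 of 221 without control library 2, 9 of 225 without control library 1 and 12 of 221 without library 3 labelled NNMT knockdown. For the alternative fits the shares over all genes are not given here, so their counts are not set against a background. Correlations of deviations were 0.0545, -0.0705 and 0.18 for libraries of the same replicate number, and -0.2 to 0.13 for different numbers. Whether the numbers pair the samples was thus not settled. With the replicate number as a block in edgeR, 0 members passed and 4 had an unadjusted p under 0.05. The median log2 fold change of the members stayed below 0 throughout, at -0.0684 to -0.0652 in the other fits and -0.103 to -0.0484 with a library left out. Between 140 and 173 members lay below 0. Of the 38 tested named members, 12 changed sign in at least 1 fit. Silent members numbered 25 at 0.1 TPM, 46 at 0.5 TPM and 13 at 0 reads in every library. Depth limits low genes: the 95% interval of the fold lay within 2-fold for 186 of 196 tested members with at least 1 TPM, and for 2 of 24 under it.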
